A study of Mus musculus with 6 samples.

Results

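The genes through which endothelium controls clotting, 6 in number here, were followed across DNA methylation data from the lungs of ageing mice: Vwf, Thbd, Procr, Tfpi, Plat and F3. They were chosen by name for their role, as 6 of 47042 autosomal genes in the RefSeq gene table of GRCm38.p6, which shares its coordinates with mm10. Each gene was taken with 20 kb on either side, and the 6 loci held 424 of the 1683697 windows of 1000 bp that had a value in every sample. The samples were endothelial cells sorted by flow cytometry from lungs of wild-type mice. The aged group has 3 samples and was taken as the 18-month group, and the mAdu group has 3 samples and was taken as the 8-month group, since the series names both ages without tying them to titles. No treatment or engineered allele is named for either group, and no label says that samples within a group were different animals, so the p-values cover only sample-to-sample spread, possibly technical. Methylation was read by tagmentation-based whole-genome bisulfite sequencing, where a transposase cuts scarce DNA and adds adapters, and bisulfite then converts the cytosines that carry no methyl group. Each value is the authors' mean methylation level of a window, given here in percent. Read depth per window is unknown, and the scatter of the samples is the only measure of precision.

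Endothelium acts on clotting through both pro-clotting and anti-clotting proteins. Von Willebrand factor (Vwf) tethers platelets to damaged vessel walls, and tissue factor (F3) starts the clotting cascade when it meets factor VIIa. Thrombomodulin (Thbd) binds thrombin and turns it into an activator of the anticoagulant protein C, which the endothelial protein C receptor (Procr) holds and presents to that complex. The tissue factor pathway inhibitor (Tfpi) blocks the first steps set off by tissue factor, and tissue-type plasminogen activator (Plat) starts the breakdown of fibrin. Methylation of cytosine in CpG pairs is usually low at active or poised promoters and enhancers and high over the rest of the genome. The level of a window averages all cells and both alleles of a sample, so a middling level can come from a mixture of cells or from partly methylated molecules, and these cannot be told apart.

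Promoter sequences are shown first because the number of CpG sites at a start differs widely between these genes, and CpG sites are what the assay reads. The RefSeq promoter table (GRCm38.p6) held Procr, Tfpi and F3, with 2 starts for Tfpi. The 250 bases before each start are printed 5′ to 3′, with each CpG in capitals. Those of Procr lie at chr2:155750967-155751216 on the plus strand, those of the outer Tfpi start at chr2:84476760-84477009 and of its inner start at chr2:84474175-84474424 on the minus strand, and those of F3 at chr3:121723287-121723536 on the plus strand.
Procr: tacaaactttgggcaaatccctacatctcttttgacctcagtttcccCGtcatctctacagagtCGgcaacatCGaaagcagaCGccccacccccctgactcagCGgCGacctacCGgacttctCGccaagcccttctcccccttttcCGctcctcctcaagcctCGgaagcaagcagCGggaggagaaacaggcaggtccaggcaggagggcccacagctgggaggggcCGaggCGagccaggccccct
Tfpi outer start: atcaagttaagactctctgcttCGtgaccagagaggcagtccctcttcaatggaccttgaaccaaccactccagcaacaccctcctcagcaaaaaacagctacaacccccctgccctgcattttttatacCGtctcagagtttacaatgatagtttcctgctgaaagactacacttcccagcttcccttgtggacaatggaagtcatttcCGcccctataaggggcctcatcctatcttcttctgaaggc
Tfpi inner start: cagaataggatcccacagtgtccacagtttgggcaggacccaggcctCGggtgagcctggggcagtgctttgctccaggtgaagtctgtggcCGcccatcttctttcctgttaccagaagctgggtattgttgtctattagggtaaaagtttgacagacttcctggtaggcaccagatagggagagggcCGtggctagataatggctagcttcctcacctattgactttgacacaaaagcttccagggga
F3: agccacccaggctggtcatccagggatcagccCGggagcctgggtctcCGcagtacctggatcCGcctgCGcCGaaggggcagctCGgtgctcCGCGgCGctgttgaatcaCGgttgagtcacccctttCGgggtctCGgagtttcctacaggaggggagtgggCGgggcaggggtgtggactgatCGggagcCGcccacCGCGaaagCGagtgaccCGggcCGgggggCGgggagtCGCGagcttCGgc

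F3 carried 24 CpG sites in these 250 bases, a number reached or passed by 12% of the 32851 promoters of the table, whose median was 6. Procr carried 13, reached or passed by 31.5% of promoters, and each Tfpi start carried 3, reached or passed by 71%. The window that holds the start was nonetheless close to unmethylated at all 3 genes when the outer Tfpi start is taken. It averaged 2.65% ± 2.12 in aged and 1.79% ± 0.303 in mAdu samples at F3, 4.23% ± 0.599 in aged and 4.47% ± 0.622 in mAdu at Procr, and 1.82% ± 1.34 in aged and 0.716% ± 0.198 in mAdu at the outer Tfpi start (SD, n = 3 each). The inner Tfpi start, with the same number of CpG sites, lay in a window at 23.7% ± 1.52 in aged and 22.1% ± 2.41 in mAdu (SD, n = 3 each). The end that holds the start, defined below, covers more than the start window. Across protein-coding genes with 0 to 4 CpG sites in their first listed promoter, its median level was 67.9% (4839 genes). Genes with 10 to 19 sites had 27.4% (4550 genes), and those with 20 or more had 19.1% (3953 genes). These medians are not on the measure of the window levels above. Over this end, Tfpi averaged 27.9%, Procr 25.4% and F3 16.2% over all 6 samples. The 250 bases were also searched on both strands for GGGCGG, a GC box, which matched 3 times at F3, 1 time at each Tfpi start and 0 times at Procr, and which 32.7% of promoters hold. The ETS core GGAA matched 5 times at the outer and 4 times at the inner Tfpi start, 3 times at Procr and 1 time at F3, where 93.4% of promoters have a match. GATA matched 2 times at each Tfpi start and 0 times at Procr and F3, where 53.6% of promoters have a match. A match describes letters, not binding.

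Ends, body and flanks of each gene were averaged separately. An end reached from 1000 bp outside to 500 bp inside a gene edge, a body ran between points 500 bp inside the edges, and a flank ran from 1000 bp to 20 kb outside an edge. For Procr, Tfpi and F3 the first end is the one with the start. For Vwf, Thbd and Plat the less methylated end stands in its place, which need not hold the start; at all 3 of these genes it was the end with the lower coordinate.

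**Figure D1:**
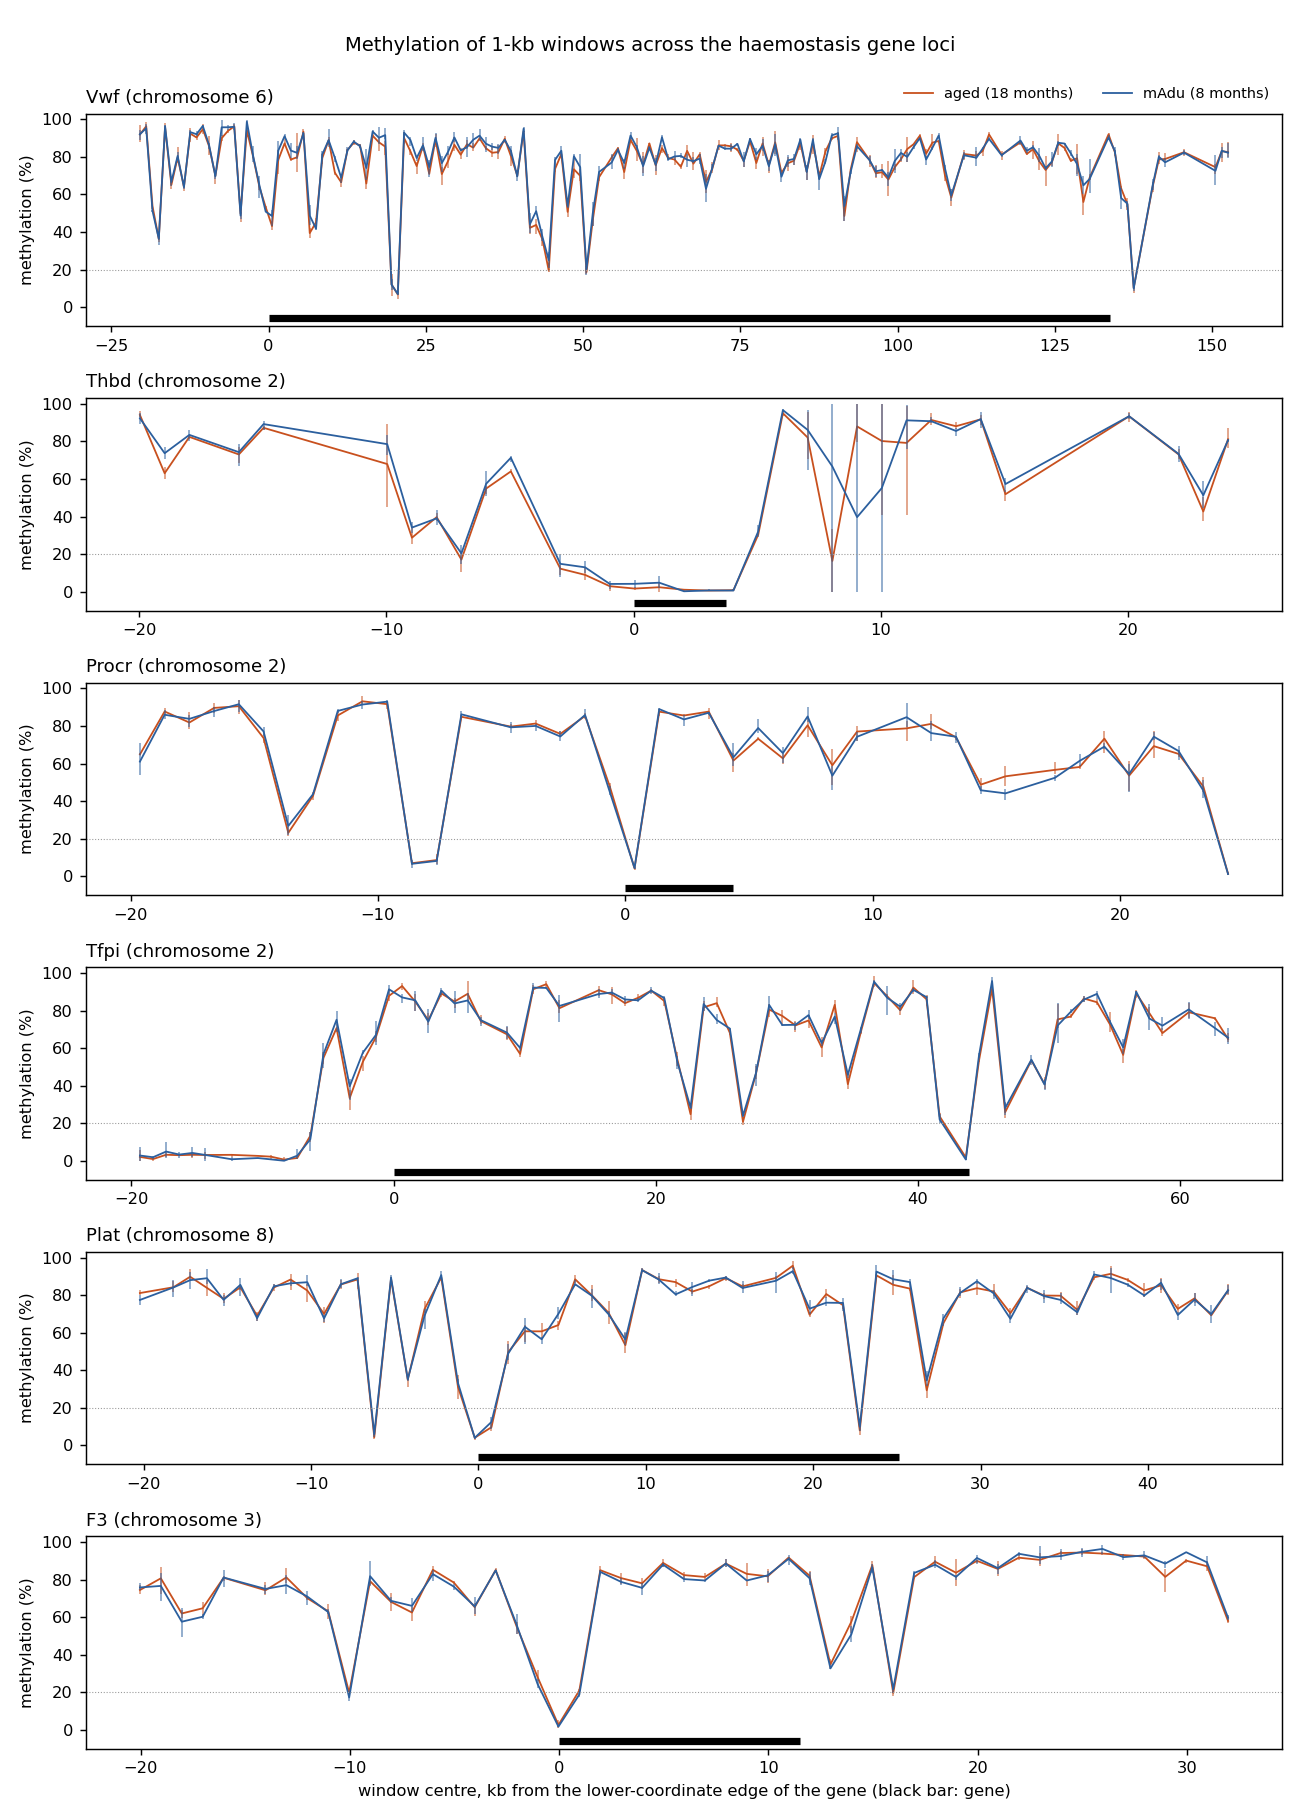
Methylation of windows of 1000 bp (percent, y axis) against the distance of the window centre from the lower-coordinate edge of the gene (kb, x axis), for aged (orange) and mAdu (blue) samples. Lines join group means, also across windows without a value, vertical bars run from the lowest to the highest of 3 samples, black bars mark genes and the dotted line marks 20%. The profiles of both groups run almost on top of each other, with dips under 20% at fixed places and a wide spread beside Thbd.

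The genes differed far more from each other than with age. From low to high, the start or less methylated ends averaged 3.27% for Thbd, 15.8% for Plat, 16.2% for F3, 25.4% for Procr, 27.9% for Tfpi and 54.1% for Vwf over all 6 samples. The order was formed from these same levels, and 3 of the ends were picked by level, so it is a description with no test. Neighbours in it kept their order in 6 of 6 samples in 4 of 5 pairs, while F3 exceeded Plat in 3 of 6 samples, by 0.417 points on average with an SD of 2.27 over samples, and these 2 could not be told apart. For bodies the order was Thbd at 1.99%, Procr at 66.1%, Plat at 72.6%, Tfpi at 72.8%, Vwf at 76.5% and F3 at 77.7%. Here Tfpi exceeded Plat by 0.149 points (SD 1.17, higher in 2 of 6 samples) and F3 exceeded Vwf by 1.2 points (SD 2.17, higher in 5 of 6 samples), both within the spread between samples, and the other 3 neighbour pairs kept their order in 6 of 6 samples. The end with the start was lower than the body in 6 of 6 samples at Procr, Tfpi and F3, by 40.8, 44.8 and 61.5 points, with an exact permutation p of 0.0313 each, the smallest that 6 pairs can give. At Vwf and Plat the less methylated end lay 22.4 and 56.8 points under the body, and at Thbd 1.28 points over it; these ends had been picked for their low level, so no test is read from them. Each end shares 1 window with the body.

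**Figure D2:**
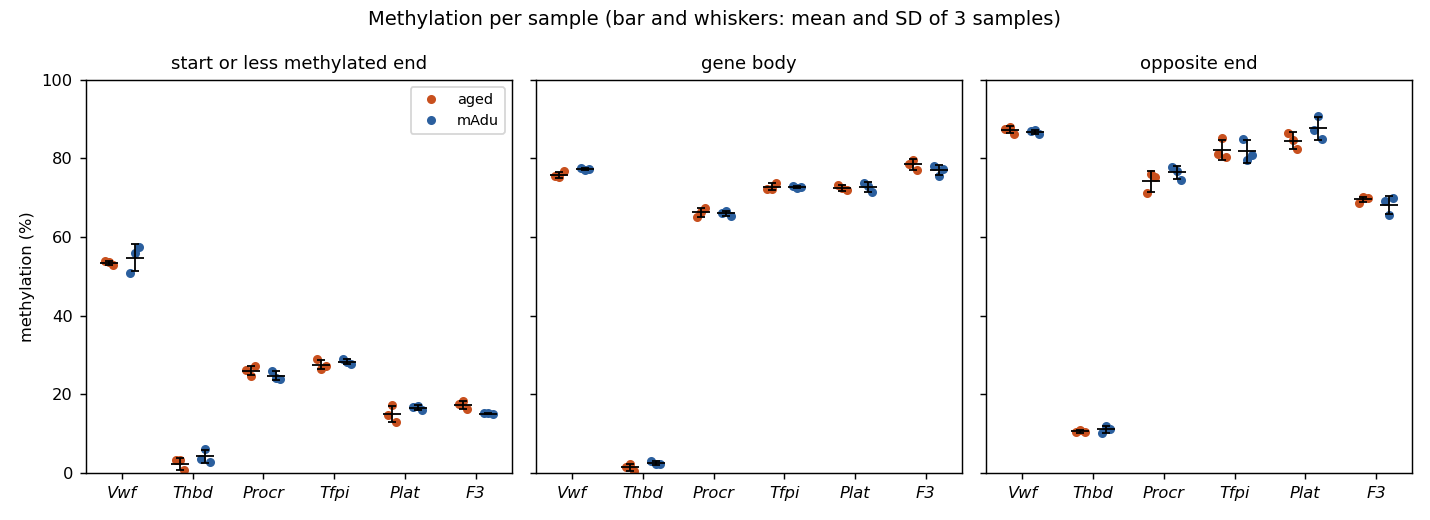
Methylation (percent, y axis) of the start or less methylated end, the body and the opposite end of each gene (x axis), with 1 point per sample, aged left in orange and mAdu right in blue, and the mean ± SD of 3 samples. Thbd lies near the floor in all 3 regions, and the other bodies lie between 65% and 80%.

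Vwf (chromosome 6, 125552948 to 125686679) was the only gene of the 6 without a window under 20% at either end. Its less methylated end was at 53.8%, 53.7% and 52.9% in the aged samples and at 50.8%, 56% and 57.5% in the mAdu samples, and the groups overlapped. Of protein-coding genes, 68.7% had a lower level at their start or less methylated end. The lowest windows of the locus were instead inside the gene, 19.1 kb in from its lower edge, where a run of 2 windows from 125572001 to 125574000 averaged 9.49% ± 2.89 in aged and 9.55% ± 1 in mAdu samples (SD, n = 3 each). Windows directly before and after this run were at 88.5% and 91.5%. A further window under 20%, from 125603001 to 125604000, averaged 18.7% in aged and 20.2% in mAdu, and 1 from 125597001 to 125598000 lay at 19.5% ± 0.974 in aged and 25% ± 4.43 in mAdu (SD, n = 3 each). The opposite end was at 87.3% ± 0.905 in aged and 86.7% ± 0.454 in mAdu (SD, n = 3 each). The low window beyond it, from 125690001 to 125691000, overlaps the edge of Ano2, a neighbouring gene 3740 bp away.

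Thbd (chromosome 2, 148404471 to 148408188) had the most extended unmethylated block among the 6 genes. A block of 8 adjoining windows from 148401001 to 148409000 covered the whole gene, each averaging under 20%. Their mean was 4.66%, 3.78% and 3.18% in aged samples and 5.2%, 5.58% and 5.26% in mAdu samples, so the groups did not overlap, as in 10% of all single windows, with a difference of -1.47 points. The lowest levels were at the higher-coordinate side, where the windows from 148406001 to 148409000 averaged between 0.68% and 0.749% over all samples, and the level climbed to 31.2% in the next window. On the lower-coordinate side it reached 11% and 13.6% in the last 2 windows of the block. The body averaged 1.47% ± 0.858 in aged and 2.51% ± 0.415 in mAdu (SD, n = 3 each), and 0.103% of 17529 protein-coding bodies were lower. The opposite end, at 10.6% ± 0.342 in aged and 11.1% ± 0.89 in mAdu (SD, n = 3 each), was also low, with 1.48% of protein-coding genes below it.

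Beside Thbd, 3 windows between 148412001 and 148415000 gave values of little use for comparing ages. In the first, aged samples were at 33.3%, 15.9% and 0.00592%, and mAdu samples at 100%, 0.000204% and 100%. These are the only windows of the 6 loci with a value under 0.01% or within 0.01 points of 100%, a kind that made up 1.72% of all windows. The flank on that side was at 72.3% ± 2.41 in aged and 72.8% ± 12.1 in mAdu (SD, n = 3 each), a difference of -0.477 points with these windows and -2.52 without them. In mAdu replicate 2 the window from 148413001 to 148414000 was at 1.09e-09% and that from 148414001 to 148415000 at 3.88e-32%. Such values are too small to be shares of counted reads, so the deposited levels are not plain read shares here. Whether neighbouring windows are separate measurements is therefore not known. The number of CpG sites and reads in these windows is unknown, and its part in these values was not tested. The flank on the other side, which holds Sstr4 and part of the lncRNA gene Gm39957, was at 52.7%, 47.7% and 48.9% in aged samples and at 52%, 54.5% and 53.4% in mAdu samples, which overlap.

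Procr (chromosome 2, 155751125 to 155755478, plus strand) had a sharp dip at its start and a methylated remainder. The window of the start was at 3.54%, 4.59% and 4.56% in aged samples and at 3.97%, 5.17% and 4.26% in mAdu samples, and the groups overlapped. The window before it was at 46.4% and the one after it at 88.3% over all samples. The body of this short gene, 4 windows of which 1 is the window of the start, averaged 66.3% ± 1.08 in aged and 66% ± 0.689 in mAdu (SD, n = 3 each). Starting 7.13 kb upstream of the gene, a run of 2 windows from 155742001 to 155744000 that overlaps no annotated gene averaged 7.82% ± 1.44 in aged and 7.43% ± 1.89 in mAdu (SD, n = 3 each). The lowest window of the locus, at 1.34% over all samples, lay at the far border and overlaps the edge of Mmp24, which encodes a membrane-bound matrix metalloproteinase.

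Tfpi (chromosome 2, 84432855 to 84476775, minus strand) was unmethylated in the window of its outer start and partly methylated in the nearest measured windows. On the inner side the adjoining window had no value, and the nearest measured one was that of the inner start, at 22.9% over all samples. That window was at 3.06%, 0.401% and 1.99% in aged samples and at 0.861%, 0.49% and 0.795% in mAdu samples, with aged replicate 2 below all mAdu samples and the other aged samples above them. The next window upstream was at 53.3% ± 1.24 in aged and 55.9% ± 1.29 in mAdu (SD, n = 3 each). Inside the gene, 2 windows from 84455001 to 84456000 and from 84459001 to 84460000 dipped to 26.6% and 22.4% over all samples. The body averaged 72.8% in both groups, with an SD of 0.856 in aged and 0.289 in mAdu (n = 3 each). The flank beyond the far end was at 18.6% ± 0.318 in aged and 19.7% ± 1.78 in mAdu (SD, n = 3 each), a level under which only 0.239% of protein-coding genes lay. That flank reaches into Calcrl, which encodes a receptor for adrenomedullin and lies 7450 bp from Tfpi. A run of 12 windows with values from 84413001 to 84427000, which overlaps the edge of Calcrl, averaged 3.29% ± 0.156 in aged and 3.17% ± 1.48 in mAdu (SD, n = 3 each).

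Plat (chromosome 8, 22757722 to 22782848) had low windows at its less methylated end, outside it and inside it. At that end a run of 2 windows from 22757001 to 22759000 was at 6.14%, 7.21% and 7.33% in aged samples and at 9.17%, 9.5% and 6.18% in mAdu samples. Aged replicate 1 and mAdu replicate 3 were almost equal, and the groups overlapped. A single window 5.72 kb outside this end, from 22751001 to 22752000, averaged 4.4% ± 1.34 in aged and 5.97% ± 1.51 in mAdu, between neighbours at 88.7% and 89% (SD, n = 3 each). Near the opposite end, the window from 22780001 to 22781000 was at 8% ± 2.19 in aged and 9.97% ± 1.86 in mAdu (SD, n = 3 each). The body averaged 72.5% ± 0.678 in aged and 72.7% ± 1.25 in mAdu (SD, n = 3 each).

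F3 (chromosome 3, 121723537 to 121735052, plus strand), the pro-clotting initiator of the set, had an unmethylated start although its body had the highest mean level of the 6. The start window and the next, from 121723001 to 121725000, averaged 12.7%, 11.4% and 11.4% in aged samples and 9.43%, 10.4% and 11.2% in mAdu samples. The groups did not overlap, as in 10% of all single windows, and the margin was less than 1 point. The body was at 78.5% ± 1.29 in aged and 77% ± 1.33 in mAdu (SD, n = 3 each). Upstream, 9.54 kb from the gene, the window from 121713001 to 121714000 was at 19.8% ± 1.41 in aged and 17.3% ± 2.3 in mAdu, and it overlaps no annotated gene (SD, n = 3 each). Beyond the far end, windows from 121736001 to 121737000 and from 121739001 to 121740000 lay at 33.8% and 20.7% over all samples, the second just outside the limit of 20%.

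Windows averaging under 20% made up 37 of 424 windows (8.73%), against 2.89% of all windows; 12 of the 37 belong to the Calcrl run and 8 to the Thbd block. They formed 15 runs, of which 8 overlap the 6 genes, 3 overlap a neighbouring gene and 4 overlap no gene of the table. These 4 lay beside Thbd, Procr, Plat and F3, between 5.72 and 9.54 kb from the gene and on the side of its start or less methylated end. For Thbd and Plat that side was itself picked by level and need not be upstream. The run beside Thbd starts at 148397001, nearer to Sstr4, which ends at 148396764, than to Thbd. Aged means were lower in 8 of the 15 runs, and no run differed by more than 3.33 points between groups. Aged and mAdu samples did not overlap in 2 of the 15 runs, the Thbd block and the F3 run of the start window and the next. This share is near the 10% of all single windows. The limit of 20% was set for description, and no test was made on these runs or on their share. The loci are centred on genes, while all windows hold the whole of the autosomes, and no share was formed for other gene loci.

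**Figure D3:**
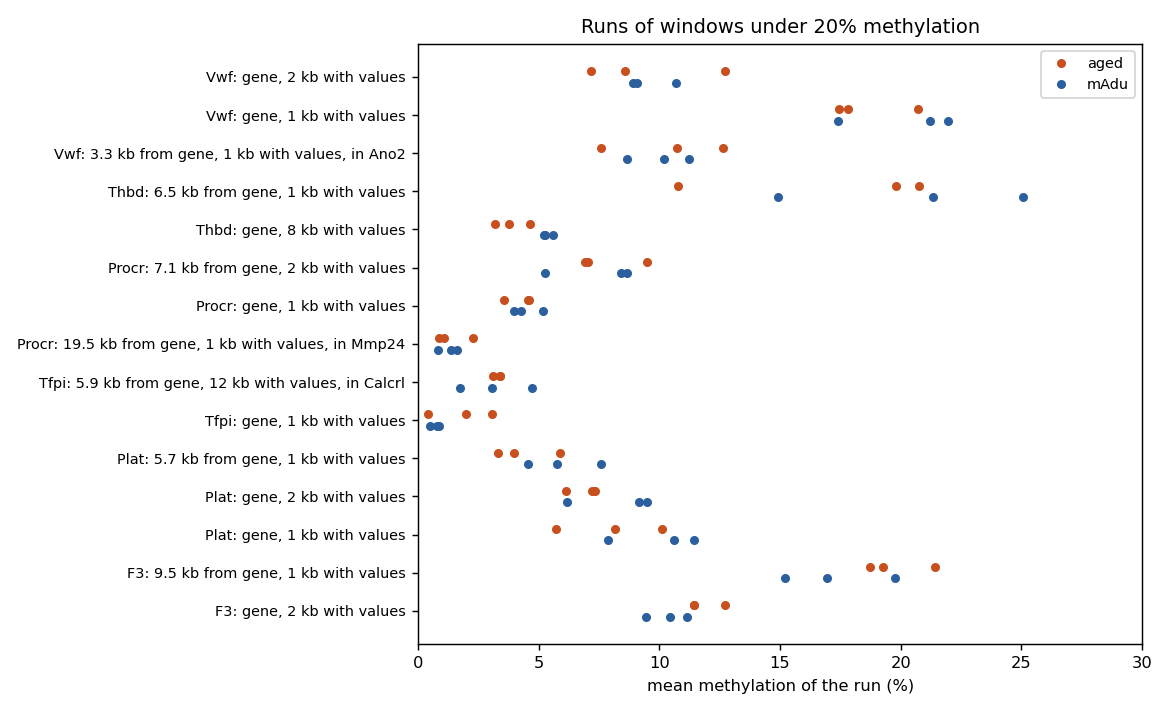
Mean methylation (percent, x axis) of the 15 runs of consecutive windows under 20%, with 1 point per sample, aged in orange above mAdu in blue, and rows named by gene, distance to the gene, length with values and any neighbouring gene overlapped. Both groups are low at the same places, and the groups overlap in all but the Thbd block and the F3 run of the start window and the next.

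Between 8 and 18 months, none of these genes differed beyond the spread between samples after adjustment. Limma, fitted over all autosomal genes, called 0 of 6 start or less methylated ends, where it called 0.0222% of 45115 genes. It called 0 of 6 opposite ends (0.00693% of 43259), 0 of 6 bodies (0.00346% of 28880), 0 of 6 flanks beside the start or less methylated end (0.0131% of 45957) and 0 of 6 flanks beside the opposite end (0.00218% of 45958). At an unadjusted limma p under 0.05 there were 1 of 6 start or less methylated ends (4.93% of all genes), 0 of 6 opposite ends (4.96%), 1 of 6 bodies (5.08%), and 0 of 6 flanks on the first side (4.52%) and on the opposite side (4.75%). Aged and mAdu samples did not overlap at that same end and that same body, and overlapped at all 6 opposite ends and all 12 flanks, where 10.2% of opposite ends, 9.76% of flanks on the first side and 10% on the opposite side did not overlap over all genes. Aged means were lower at 4 of 6 start or less methylated ends (50% of all genes), 3 of 6 opposite ends (51.1%), 3 of 6 bodies (52.6%), 5 of 6 flanks on the first side (53.4%) and 3 of 6 on the opposite side (53.6%). The limma adjusted p-values of the 30 comparisons lay between 0.948 and 1. Leaving aside the Thbd flank with the erratic windows, the widest 95% interval ran from -6.25 to 3.66 points, at the less methylated end of Vwf, and the bound farthest from 0 was -7.7 points, at the opposite end of Plat. Among bodies the widest ran from -0.827 to 3.76 points, at F3. 

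**Figure D4:**
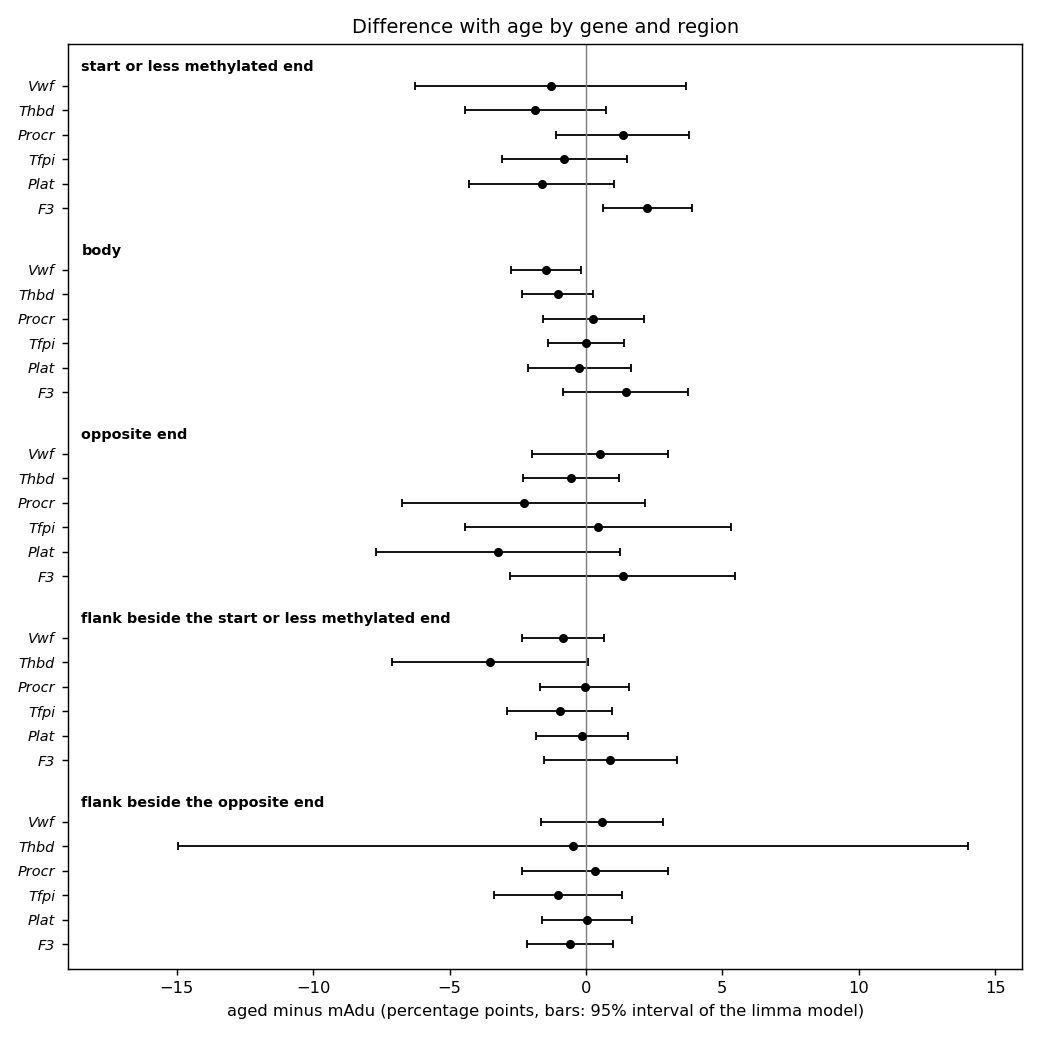
Difference aged minus mAdu (percentage points, x axis) for each gene in 5 regions, with the 95% interval of the limma model. Intervals include 0 except those of the F3 start end and the Vwf body, and neither of these passed adjustment.

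The 2 regions with the smallest p were the end with the F3 start and the Vwf body, in opposite directions. The end with the F3 start was at 17.4%, 18.3% and 16.3% in aged samples and at 15.3%, 15.1% and 14.9% in mAdu samples. Each aged sample lay above each mAdu sample, by 2.25 points on average (SE 0.685, limma adjusted p = 0.974). Groups did not overlap at 10% of all start or less methylated ends. The window of the F3 start itself overlapped between groups, at 5.09%, 1.25% and 1.6% in aged samples and at 1.48%, 1.79% and 2.09% in mAdu samples. The Vwf body, over 125 windows, was at 75.5%, 75.2% and 76.7% in aged samples and at 77.6%, 77% and 77.2% in mAdu samples. All aged samples were under all mAdu samples, with a difference of -1.47 points (SE 0.528, limma adjusted p = 0.948), and groups did not overlap at 10.1% of all bodies. Over all alternatives, the adjusted limma p of the Vwf body ranged from 0.82 to 1 and that of the end with the F3 start from 0.929 to 0.988.

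The Vwf difference was spread over many windows and had its largest mean over the lower-coordinate section of the gene. Of 126 windows that overlap Vwf, 83 (65.9%) were lower in aged samples, against 51.1% of all windows. Adjacent windows may be correlated, which was not measured, so this count is a description. The gene was split into 3 sections of similar length, a split chosen after seeing the profile. In the lower section 37 of 46 windows were lower in aged, and the mean was 71.9% ± 0.761 in aged and 74.6% ± 0.567 in mAdu (SD, n = 3 each). In the middle section 24 of 43 windows were lower, at 76.5% ± 1.21 in aged and 77.3% ± 0.778 in mAdu, and in the upper section 22 of 37, at 79.1% ± 0.715 in aged and 79.8% ± 0.339 in mAdu (SD, n = 3 each). The window with the widest gap in the gene, from 125559001 to 125560000, was at 39.6%, 36.8% and 42% in aged samples and at 48%, 54.6% and 43.7% in mAdu samples. The unmethylated run 19.1 kb inside the gene differed by -0.0644 points.

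**Figure D5:**
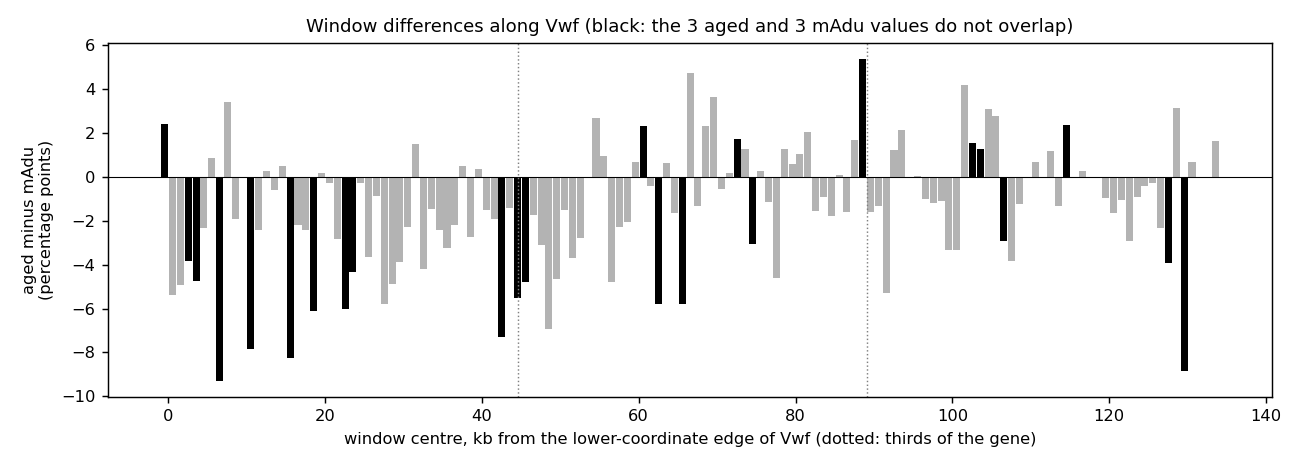
Difference aged minus mAdu (percentage points, y axis) of each window that overlaps Vwf, against its distance from the lower-coordinate edge (kb, x axis); black bars are windows whose aged and mAdu samples do not overlap. Such windows, 10% of all windows, numbered 11 of 46 in the lower section (10 lower in aged), 7 of 43 in the middle section (4 lower) and 6 of 37 in the upper section (3 lower), a split chosen after seeing the profile.

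Single windows told the same of all 6 loci. None of 424 passed (limma called 0.0211% of all 1683697 windows), 18 had an unadjusted limma p under 0.05 (4.25%, against 4.67% of all windows), and the smallest adjusted limma p was 0.978. Groups did not overlap in 53 windows (12.5%, against 10% of all), 31 of them lower and 22 higher in aged. Over the 6 loci, 253 of 424 windows (59.7%) were lower in aged samples, against 51.1% of all windows. Lower windows were the majority at Vwf (102 of 157), Thbd (25 of 34) and Tfpi (49 of 75). They were an even share at Procr (21 of 42) and Plat (32 of 64), and the minority at F3 (24 of 52). Adjacent windows may be correlated, which was not measured, so these counts are a description. The window with the smallest p at Tfpi, from 84457001 to 84458000 inside the gene, was at 87.3%, 82.6% and 82% in aged samples and at 73.9%, 73% and 78% in mAdu samples. That of Plat, from 22769001 to 22770000, was at 87.6%, 88.6% and 84.6% in aged and at 82.4%, 79.3% and 79.5% in mAdu samples. Both lay higher in every aged than in every mAdu sample, as did that of Procr (155766001 to 155767000, 53.2% ± 5.27 in aged and 44.2% ± 3.1 in mAdu, SD, n = 3 each). Those of Vwf (125563001 to 125564000, 71.6% ± 0.966 in aged and 79.4% ± 1.79 in mAdu), Thbd (148385001 to 148386000, 63.1% ± 3.22 in aged and 73.7% ± 3.16 in mAdu) and F3 (121753001 to 121754000, 90.2% ± 1.3 in aged and 94.6% ± 0.269 in mAdu) lay lower in every aged sample (SD, n = 3 each). These windows were named for their small p.

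Other genes of haemostasis set the 6 in context. Of 69 listed genes, 68 had a start or less methylated end and 66 had bodies, and limma called 0 in any region. An unadjusted limma p under 0.05 was found at 1 of 68 start or less methylated ends (4.93% of all genes), 2 of 68 opposite ends (4.96%), 7 of 66 bodies (5.08%), 2 of 68 flanks on the first side (4.52%) and 1 of 68 on the opposite side (4.75%). The median difference with age was -0.375 points at their start or less methylated ends and -0.138 over bodies, against -0.000429 and -0.0495 over all genes tested. Levels differed by class of gene, with no test made. Genes without a known strand entered with their less methylated end, which can lower the median of a class. Coagulation factors and fibrinogen, mostly made by liver, had a median start or less methylated end of 57.4% over all samples (13 genes, from F5 at 47.2% to Fgb at 80%). Soluble anticoagulants and their inhibitor relatives had 61.2% (8 genes, from Pros1, protein S, at 21.1% to Serpinc1, antithrombin, at 88.8%). Fibrinolysis genes had 49.9% (12 genes, from S100a10 at 2.97% to Hrg at 87.4%), and thrombin receptors and adhesion partners had 47.7% (15 genes, from Mmrn1 at 11.1% to Sele at 86.2%). Antithrombotic genes of endothelium had 15.8% (10 genes, from the flow-responsive factor Klf4 at 0.612% to Ptgs1 at 72.7%), and genes of clotting factor processing and release had 24.9% (10 genes, from Vkorc1l1 at 0.836% to Lman1 at 43.6%). The median of the 6 was 20.8%, and of all protein-coding genes 34.7%, but 3 of the 6 values are ends picked as the less methylated one, so the 2 medians are not a like comparison.

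Marker genes were read the same way to check the label of the cells. Endothelial markers had a median body level of 45.3% over all samples (9 bodies), against 67.6% for epithelial, 70.7% for haematopoietic, 70.5% for mesenchymal and 67.7% for platelet and megakaryocyte markers. At start or less methylated ends the medians were 17.6%, 38.9%, 70.5%, 30% and 58.8% in the same order. Where strand was unknown, the less methylated end was used here too, and no test was made between these lists. Sample means of the endothelial bodies ran from 46.7% to 48% in aged and from 46.6% to 47.5% in mAdu, and those of haematopoietic bodies from 70.9% to 71.4% in aged and from 70.1% to 71.7% in mAdu. Sample means of platelet marker bodies ran from 66.8% to 67.7% in aged and from 67.3% to 67.6% in mAdu. Mean levels of mesenchymal start or less methylated ends were 32.2% to 32.9% in aged and 31.2% to 31.7% in mAdu samples, without overlap. Over all genes, groups did not overlap at 10% of single such ends. Means of other lists separated too, higher in aged for coagulation factor bodies (74.4% to 74.7%, against 73.7% to 74.2% in mAdu). They were lower in aged for coagulation factor start or less methylated ends (61.1% to 61.6%, against 61.7% to 62.6% in mAdu). Means also separated at antithrombotic opposite ends, lower in aged (60.2% to 60.9%, against 61.5% to 62.1% in mAdu). Beside the opposite end, they were higher in aged for coagulation factor flanks (74.8% to 76.1%, against 72.9% to 74.6% in mAdu). Flanks of clotting factor processing genes on that side were lower in aged (70.6% to 71.03%, against 71.04% to 71.3% in mAdu). The flanks of the 6 members beside the start or less methylated end also had lower means in aged (67.2% to 68%, against 68.1% to 68.9% in mAdu). Each of these flanks overlapped between groups on its own, where 9.76% of such flanks over all genes did not. Their differences were -3.53 points for Thbd, -0.971 for Tfpi, -0.828 for Vwf, -0.144 for Plat, -0.0499 for Procr and 0.897 for F3. Every list was read in every region, and no share of separated means was formed over other gene lists. The part of any of these in the differences above was not tested. Across all autosomal windows the sample means were 73.4% ± 0.317 in aged and 73.5% ± 0.152 in mAdu (SD, n = 3 each).

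Genes most like each member in level were found over 30 values, 5 regions in 6 samples, among 16703 protein-coding genes. The unmethylated Thbd was closest to Zfp503 and Pitx1, which encode transcriptional regulators of development, with mean absolute differences of 3.53 and 4.23 points. Vwf was closest to Apc and Hspa4l (2.37 and 2.38 points), Procr to Ppox and Hrh1 (1.78 and 1.92), Plat to Grb10 and Bmp6 (both 1.81) and F3 to Far1 and Rab6b (1.85 and 2.3). Tfpi had the least close partners, 2310009B15Rik at 4.39 and Hsf1 at 6.99 points. These are likenesses of level only.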

How the data were processed

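Methylation was measured in 3 aged and 3 mAdu samples of sorted lung endothelial cells. Per the labels' protocols, 30 ng of DNA was tagmented and bisulfite-treated and 3 libraries per sample were sequenced as 100 bp pairs. BWA 0.7.8 and the build mm10 are named in the submitters' processing notes, as labels without a role. The CpG caller, coverage filter and averaging step were not given in the sources used here. For 19 autosomes the authors deposited a fraction from 0 to 1 per window of 1000 bp, without coverage or CpG number, so no counting interval could be given; fractions were multiplied by 100. Of 1684140 windows, 1683697 lacked no sample and were used. Windows that overlap a region were averaged with equal weight; bodies needed 3 windows. Strand came from the RefSeq promoter table, which gave it for 25748 of 47042 autosomal genes; for the others the less methylated end was used. Percent values entered limma 3.58.1 (R 4.3.3), with a mean-variance trend and no covariate besides group, and p-values were adjusted by Benjamini-Hochberg over all genes or windows, with calls at 0.05. The fit was also run on simulated data with added shifts, and the share of shifts recovered is not given here. Start end and body were compared within samples by exact two-sided sign-flip permutation tests. Named windows were the lowest and the one of smallest p per gene and every run under 20%; like genes were the 2 nearest; other lists were given by their counts and extremes. Further windows, among them those just above 20%, were chosen after their values were seen. Alternatives were leaving out each sample, a replicate block, the logit scale (fractions held within 0.01 and 0.99), no variance trend, no windows of extreme values, other widths and, added after seeing the data, protein-coding genes only. The genes, lists and tests were chosen with earlier results of these data known.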

Additional observations from a re-analysis of the deposited data

How the results depend on the processing

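All counts of called members, 0 in each of the 5 regions and among the 424 windows, were 0 under every alternative run. Directions of small differences were less firm. With flanks of 10 kb the difference became 0.393 points at the upstream flank of Procr, and at the flank beside the opposite end 0.663 for Thbd, -0.359 for Procr, -0.828 for Plat and 0.554 for F3. With the whole gene span as body it became -0.134 for Procr and -0.0784 for Tfpi. The opposite end turned to 0.0602 for Thbd with 500 bp on each side of the edge and to -0.889 for Tfpi with 2000 bp outside and 1000 bp inside. Leaving out 1 sample at a time, ranges that crossed 0 were -3.27 to 0.0593 points for the less methylated end of Vwf and -1.03 to 2.05 for the opposite end of Tfpi. For bodies they were -0.264 to 0.818 (Procr), -0.486 to 0.28 (Tfpi) and -0.923 to 0.309 (Plat), for flanks beside the start or less methylated end -0.512 to 0.42 (Procr) and -0.582 to 0.309 (Plat), and for flanks beside the opposite end -0.0116 to 1.17 (Vwf), -7.02 to 4.93 (Thbd), -0.413 to 1.16 (Procr) and -0.542 to 0.484 (Plat). The end with the F3 start (1.78 to 2.77) and the Vwf body (-1.92 to -1.19) kept their direction. With 5 samples an exact sign-flip permutation test cannot pass 0.05, so leaving out a sample gave 0 calls for start end against body, where only those of Procr, Tfpi and F3 are read as tests, and 0 for neighbours in the order of levels, which are not read as tests. Over all genes, limma called between 2 and 23 start or less methylated ends (10 in the report), 0 and 18 opposite ends (3), 0 and 9 bodies (1), 0 and 18 flanks beside the start or less methylated end (6), 0 and 11 beside the opposite end (1), and 59 to 998 windows (355). The same replicate number gave no sign of pairing: deviations of same-numbered samples correlated at -0.0116, -0.0167 and -0.0006 across windows. No sample correlated best with its own number. A weak or local link between samples would not show in this check. With a replicate block the members' calls stayed 0 in each region, and 3 start or less methylated ends and 185 windows were called over the genome. Depth is unknown, so windows with few reads could not be set aside.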
